A study of Mus musculus with 6 samples.

Results

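The 10 genes described here encode the classical apolipoproteins of the mouse: Apoa1, Apoa2, Apoa4, Apoa5, Apob, Apoc1, Apoc2, Apoc3, Apoe and Apom. They were taken by symbol, through the Ensembl gene identifiers of the deposited count table, from 55357 genes in all. All 10 were found in the table, and all 10 passed the filter on low counts that left 14433 genes for testing. Messenger RNA was measured by bulk sequencing of liver from wild-type male C57BL6/J mice aged 8 to 9 weeks at the start. Every mouse received a gavage for 7 days, fed a control diet (10% of energy as fat) during 4 days and then a high-fat diet (60% of energy as fat) during 3 days. The vehicle group was given 2.5% Tween-80, and the other group was given esculetin, a plant coumarin, so both groups carried the high-fat diet and no library came from mice kept on the control diet. There were 3 libraries per group, and each library pooled the livers of 2 mice, so that the spread between libraries is the spread between pools and not between single animals. The labels give 2 doses for the same libraries, 180 mg/kg per day in the sample names and 90 mg/kg per day in the treatment field, and the animals are therefore called the esculetin group without a dose.

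Apolipoproteins are the proteins that wrap lipids for transport in blood, and the liver makes most of them. APOB is the scaffold of very low density lipoprotein, APOA1 and APOA2 are the main proteins of high density lipoprotein, and APOE is the ligand through which the liver takes remnants back up. The C apolipoproteins and APOA5 move between particles and set how fast lipoprotein lipase removes their triglyceride, with APOC2 as the activator of the enzyme, APOC1 and APOC3 as inhibitors, and APOA5 on the side of triglyceride clearance.

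The libraries held 27957713 to 34920922 counts. Counts were expressed relative to the scaled total of each library, as CPM, with edgeR's TMM factors, which lay between 0.979 and 1.02, and the median log2 fold change over all genes tested was -0.008. Across all genes, 6 of 14433 had a p under 0.05 in edgeR's quasi-likelihood test after adjustment by Benjamini-Hochberg. The 8 hepatocyte markers summed to 94470 to 98589 CPM in the vehicle libraries and to 89926 to 100490 CPM in the esculetin libraries, and none of them had an unadjusted p under 0.05. Sis, Alpi and Lct, which define absorptive cells of the intestine, the other main source of Apob, Apoa1 and Apoa4 messages, had 0 counts in all 6 libraries, while all 5 enterocyte markers summed to 122 to 153 CPM with vehicle and 120 to 186 CPM with esculetin through Fabp2 and Vil1.

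Apolipoprotein messages took 3.70 to 3.75% of all counts in the vehicle libraries and 3.87 to 4.12% in the esculetin libraries. The mean share was 3.72% ± 0.0251 (SD, n = 3) with vehicle and 4.01% ± 0.125 (SD, n = 3) with esculetin, and the groups did not overlap. The exact two-sided permutation test of this share gave p = 0.1, the smallest possible with 3 libraries against 3. No apolipoprotein gene passed the rule that defined a called gene, an unadjusted p under 0.05 with a fold change over 1.5, against 3.13% of all genes tested, 1.37% higher and 1.76% lower. At an unadjusted p under 0.05 with no fold threshold, 5 of the 10 were higher with esculetin and 0 were lower, against 6.53% and 5.32% of all genes tested. With a fold change over 1.2 in addition, 4 were higher and 0 lower, against 4.5% and 4.3% of all genes tested. The 5 were Apoa2, Apoc3, Apoc1, Apoa5 and Apoe, and in these 5 the groups did not overlap, which held for 17.4% of all genes tested. No apolipoprotein gene had an adjusted p under 0.05 in edgeR's quasi-likelihood test, whose share over all genes was 0.0416%, and limma also gave 0, while DESeq2, and edgeR without the filter on low counts, gave 4 (Apoa2, Apoc3, Apoc1 and Apoa5). Of the 10 log2 fold changes, 8 were positive, and their median was 0.13. Of the 10 genes, 8 had a mean of at least 100 CPM. Among all 1347 genes of at least 100 CPM, 65.0% of log2 fold changes were positive and the median was 0.06, and the share with an unadjusted p under 0.05 was 18.9% higher and 4.83% lower, against 5 of those 8, all higher. This comparison was added after the values were seen. In bulk liver, fewer cells of a type and less RNA per cell cannot be told apart.

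**Figure D1:**
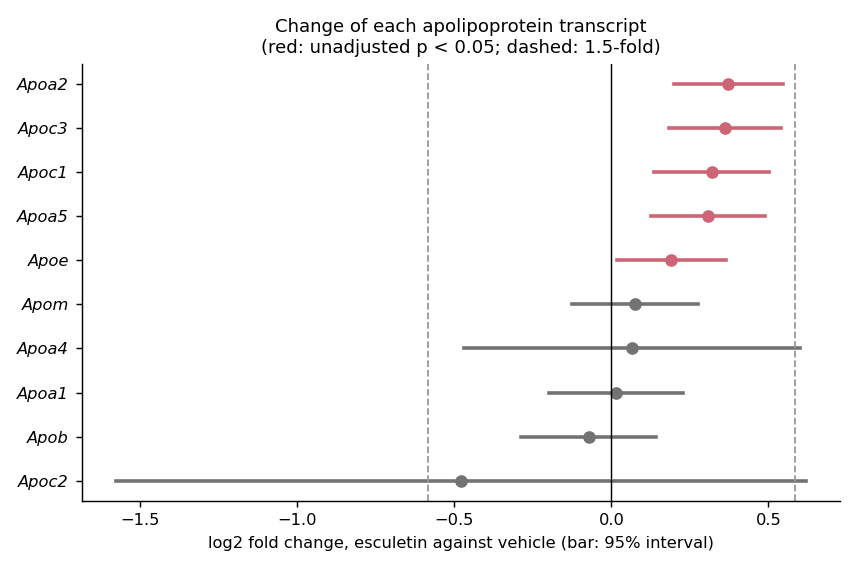
Log2 fold change of each apolipoprotein gene, esculetin against vehicle, with its 95% confidence interval from edgeR's quasi-likelihood fit (3 libraries per group). The intervals of Apoa2, Apoc3, Apoc1, Apoa5 and Apoe lie above 0, all point estimates lie inside the 1.5-fold lines, and Apoc2 and Apoa4 have the widest intervals.

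Levels can be compared between genes only per length. In the vehicle group, on the scale of CPM per kilobase of the canonical transcript, Apoa2 stood at 6936 ± 320 (SD, n = 3), Apoa1 at 5982 ± 536 and Apoe at 5742 ± 141, and the values of Apoa1 and Apoe overlapped within their SD. Apoc1 followed at 1519 ± 83.8, Apob at 573 ± 52.2 and Apoc3 at 430 ± 5.21. Apom at 199.7 ± 19.98 and Apoa5 at 192 ± 6.03 lay within their spread of each other, and Apoa4 at 35.2 ± 1.09 and Apoc2 at 2.06 ± 1.12 were the lowest. The order depended on the length used. Per kilobase of coding sequence Apoe led at 13422 ± 330, Apoa2 and Apoa1 stood at 11741 ± 542 and 11201 ± 1004, Apoc1 at 8102 ± 447, and Apoc3, at 2425 ± 29.4, lay above Apob at 590.4 ± 53.8. On that scale Apoa5 at 469 ± 14.8 lay above Apom at 355 ± 35.5, and Apoa4 and Apoc2 stayed lowest at 53.9 ± 1.68 and 5.66 ± 3.07. On both scales the level of Apoc2 is uncertain, because Apoc2l, on the same strand, shares 80.9% of the canonical Apoc2 transcript.

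Promoter sequences are shown for Apoa2 and Apoa5, whose unadjusted p stayed under 0.05 in every setting, though neither was called. They are also shown for Apoe, whose p depended on the setting, and for Apoa1, which did not pass the test. Each is the window of 250 bases that ends just before a transcript start in RefSeq (build GRCm38.p6, an earlier build than the one the counts used), written along the gene's strand. RefSeq windows were found for 8 of the 10 genes, all but Apoc1 and Apoc3. Capitals mark matches on either strand to 4 motifs: AGGTCA, the nuclear receptor hexamer, TGACG, the core of the cyclic AMP response element, TTGCNNAA, the C/EBP core, and TATAAA, the TATA box. The windows lie at chr1:171224804-171225053 on the plus strand for Apoa2, chr9:46268358-46268607 on the plus strand for Apoa5, chr7:19699189-19699438 on the minus strand for Apoe and chr9:46228380-46228629 on the plus strand for Apoa1.
Apoa2: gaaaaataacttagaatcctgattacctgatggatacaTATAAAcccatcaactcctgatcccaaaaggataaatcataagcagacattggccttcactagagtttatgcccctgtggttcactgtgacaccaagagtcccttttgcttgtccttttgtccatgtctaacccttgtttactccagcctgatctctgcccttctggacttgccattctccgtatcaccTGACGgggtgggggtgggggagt
Apoa5: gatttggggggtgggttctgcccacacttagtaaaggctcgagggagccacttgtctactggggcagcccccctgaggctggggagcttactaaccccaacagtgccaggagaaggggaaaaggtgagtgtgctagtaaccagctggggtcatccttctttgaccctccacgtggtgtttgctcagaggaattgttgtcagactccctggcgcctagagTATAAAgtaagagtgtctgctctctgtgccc
Apoe: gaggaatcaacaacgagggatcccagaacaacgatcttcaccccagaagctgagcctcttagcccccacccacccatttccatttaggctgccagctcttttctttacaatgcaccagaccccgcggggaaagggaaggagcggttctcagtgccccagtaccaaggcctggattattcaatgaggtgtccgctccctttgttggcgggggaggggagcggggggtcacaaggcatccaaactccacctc
Apoa1: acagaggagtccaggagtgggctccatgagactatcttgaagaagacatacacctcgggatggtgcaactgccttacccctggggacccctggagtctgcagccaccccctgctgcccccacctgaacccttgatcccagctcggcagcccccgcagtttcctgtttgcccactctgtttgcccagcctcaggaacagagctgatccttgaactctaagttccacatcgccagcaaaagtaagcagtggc

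In these windows Apoa2 carried TATAAA 212 bases and TGACG 23 bases before the transcript start, Apoa5 carried TATAAA 31 bases before it, and the windows of Apoe and Apoa1 held none of the 4 motifs. Over all 12 windows of the 8 genes, some of which overlap because a gene can have several starts, AGGTCA was in 2 (Apoa2 and Apoc2), TGACG in 2 (Apoa2 and Apoc2), TTGCNNAA in 2 (Apoa2 and Apob) and TATAAA in 5 (Apoa2, Apoa5, Apob and Apoe). Among 32851 RefSeq windows of the same length, AGGTCA was in 14%, TGACG in 17.8%, TTGCNNAA in 9.56% and TATAAA in 12.4%. The matches describe letters in these windows and carry no measurement of binding.

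At an unadjusted p under 0.05, Apoa2 was higher with esculetin and Apoa1 was not, but their ratio overlapped between the groups. Both encode proteins of high density lipoprotein. Apoa2 (ENSMUSG00000005681, GRCm39 chr1:171049125-171053948, plus strand) is the second protein of these particles by mass. Its level was 3781, 3467 and 3531 CPM in the vehicle libraries and 4484, 4715 and 4756 CPM in the esculetin libraries. Every esculetin library lay above every vehicle library. The mean went from 3593 ± 166 to 4651 ± 147 CPM (SD, n = 3), a log2 fold change of 0.37 (SE 0.0779, 95% confidence interval 0.20 to 0.55) or 29.5%, with an unadjusted p of 0.000803 and an adjusted p of 0.136 in edgeR's quasi-likelihood test. On the opposite strand, the gene Tomm40l overlaps exons of longer Apoa2 transcripts and had 631 counts with vehicle and 660 with esculetin over all libraries, but it shares no base with the canonical transcript. Gm71631, also on the opposite strand, shares 236 bases, or 45.6%, of that transcript and was not among the genes counted. The p of Apoa2 was the smallest of the apolipoprotein genes and ranked 85 among all genes tested. An exact two-sided permutation test of 3 libraries against 3 gave p = 0.1, the smallest it allows, for Apoa2 and for each of the other 4 genes whose groups did not overlap.

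Apoa1 (ENSMUSG00000032083, chr9:46139878-46142212, plus strand), the scaffold protein of high density lipoprotein, was at 7992, 9082 and 9541 CPM with vehicle and at 9695, 8601 and 8578 CPM with esculetin. The lowest library was a vehicle library and the highest an esculetin library, and the others were mixed. The log2 fold change was 0.01 (SE 0.0952), and its 95% confidence interval, -0.20 to 0.23, took in changes of that size in both directions. Scaling by total counts alone turned the sign of this value, to -0.01, and leaving out vehicle replicate 1 or esculetin replicate 1 also turned it, to -0.06 and -0.05. The ratio of Apoa2 to Apoa1 within each library was higher with esculetin by 0.36 on the log2 scale, and the groups overlapped (exact permutation p = 0.2, adjusted 0.4 over 10 ratios).

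Apom (ENSMUSG00000024391, chr17:35347973-35351026, minus strand), which carries sphingosine-1-phosphate on these particles, was at 185, 198 and 224 CPM with vehicle and at 226, 210.5 and 203 CPM with esculetin. The groups overlapped, and the log2 fold change was 0.07 (SE 0.0903, 95% confidence interval -0.13 to 0.28). With 1 library left out, the value for Apom ran from 0.01 (without vehicle replicate 1) to 0.16 (without vehicle replicate 3). Its ratio to Apoa1 varied little, with SDs of 0.0582 and 0.0362 on the log2 scale, and the means of the groups differed by 0.06 (exact permutation p = 0.2, adjusted 0.4). Measured by the root mean square difference of centred log2 CPM over the 6 libraries, Apoa1 and Apom were 0.0504 apart, and of all pairs of the 10 genes only Apoa2 and Apoc1 lay closer, at 0.0416.

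**Figure D2:**
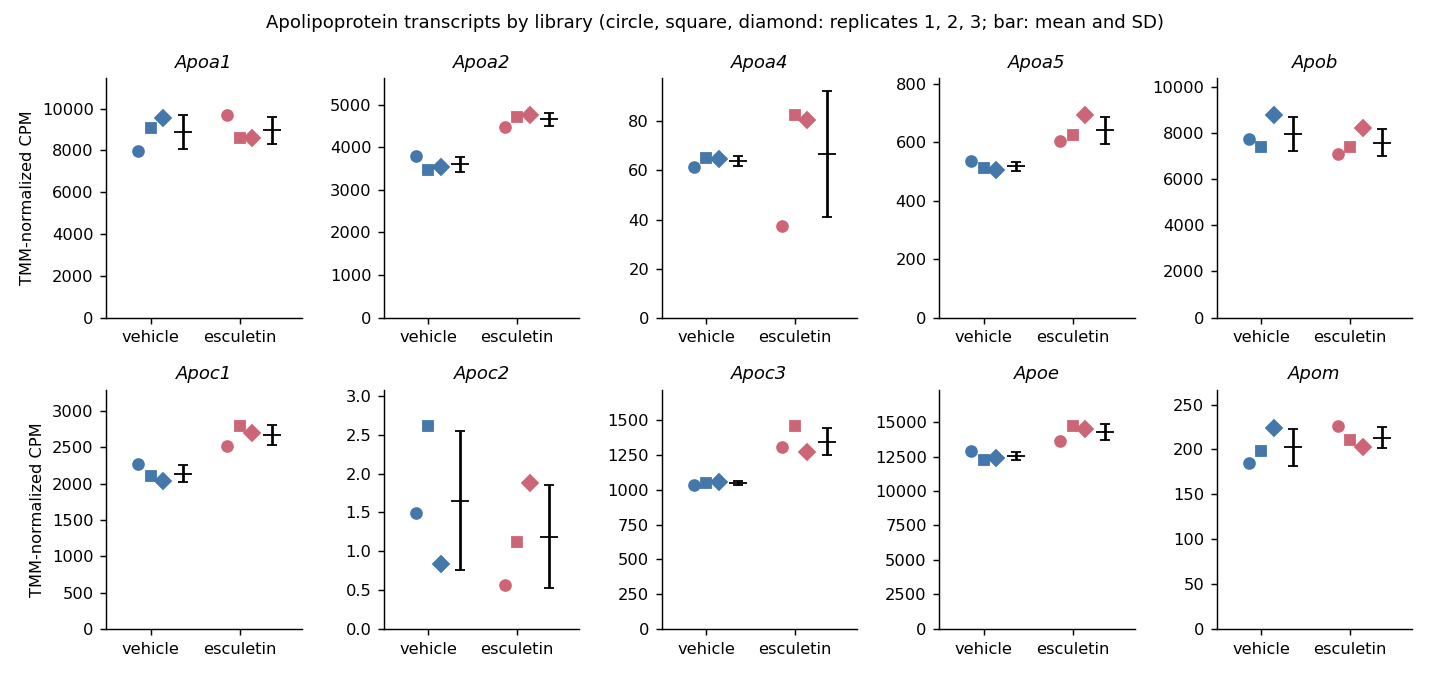
CPM of each apolipoprotein gene in the 6 libraries, with group means and SD, each gene on its own axis. Apoa2, Apoa5, Apoc1, Apoc3 and Apoe show esculetin libraries above all vehicle libraries, whereas in Apoa4 esculetin library 1, at 37.2 CPM, lies below all others.

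Of the genes that act on lipoprotein lipase, the inhibitors Apoc3 and Apoc1 and the gene on the clearance side, Apoa5, were all higher with esculetin, whereas the activator Apoc2 was barely measured. Apoc3 (ENSMUSG00000032081, chr9:46142527-46146934, minus strand) slows both lipolysis and the uptake of remnants. It stood at 1033, 1052 and 1058 CPM with vehicle, a spread of 12.7 CPM (SD), and at 1307, 1457 and 1273 CPM with esculetin. The groups did not overlap. On the log2 scale the change was 0.36 (SE 0.0801, 95% confidence interval 0.18 to 0.54), or 28.5%, with an unadjusted p of 0.0012 and an adjusted p of 0.152 in edgeR's quasi-likelihood test.

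Apoc1 (ENSMUSG00000040564, chr7:19422540-19427328, minus strand), which also inhibits the cholesteryl ester transfer protein in species that have it, was at 2270, 2105 and 2041 CPM with vehicle. With esculetin it was at 2522, 2790 and 2692 CPM, again with no overlap. Its log2 fold change was 0.32 (SE 0.0818, 95% confidence interval 0.14 to 0.50), or 24.7%, with an unadjusted p of 0.00314 and an adjusted p of 0.203 in edgeR's quasi-likelihood test.

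Apoa5 (ENSMUSG00000032079, chr9:46179931-46183217, plus strand) is made almost only by hepatocytes and circulates at very low levels. It was at 536, 511 and 505 CPM with vehicle and at 603, 624 and 693 CPM with esculetin, so that the lowest esculetin library lay above the highest vehicle library. The log2 fold change was 0.31 (SE 0.0808, 95% confidence interval 0.13 to 0.49), or 23.7%, with an unadjusted p of 0.00368 and an adjusted p of 0.206 in edgeR's quasi-likelihood test. The confidence intervals of Apoa2, Apoc3, Apoc1 and Apoa5 overlapped widely, and their fold changes were not ordered by any test.

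Apoc2 (ENSMUSG00000002992, chr7:19405504-19411877, minus strand), the cofactor that lipoprotein lipase requires, had 44, 85 and 23 counts in the vehicle libraries and 18, 39 and 63 in the esculetin libraries. These counts correspond to 1.498, 2.61 and 0.839 CPM and to 0.560, 1.12 and 1.88 CPM. Libraries of both groups were spread over the same range. The log2 fold change was -0.48 (SE 0.491, 95% confidence interval -1.58 to 0.62), and without vehicle replicate 2 it was 0.03. A second annotated gene on the same strand, Apoc2l, shares 646 exonic bases with Apoc2, which is 80.9% of its canonical transcript in the GENCODE annotation used here. Apoc2l had 0 counts in all libraries. Whether reads of the shared exons were counted depends on the counting options, which are not given in the sources used here, so the level of Apoc2 is uncertain, as are its ratios to Apoe and Apoc3.

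Apoe and Apob encode the proteins through which particles bind receptors, and the difference between their fold changes was not tested. Apoe (ENSMUSG00000002985, chr7:19430034-19434947, minus strand) had the highest CPM of the 10 genes, at 12869, 12279 and 12420 with vehicle and 13636, 14697 and 14530 with esculetin. The groups did not overlap, but the log2 fold change was only 0.19 (SE 0.0775, 95% confidence interval 0.02 to 0.36), or 14.1%, with an unadjusted p of 0.0347 and an adjusted p of 0.380 in edgeR's quasi-likelihood test. This p passed 0.05 under some settings and not under others, and it was 0.149 by limma with a trend and 0.0630 with scaling by total counts alone. It was also above 0.05 without vehicle replicate 2 (0.0976) or 3 (0.0599) and without esculetin replicate 2 (0.0862) or 3 (0.0892).

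Apob (ENSMUSG00000020609, chr12:8027648-8066835, plus strand), of which each very low density particle carries a single copy, stood at 7735, 7405 and 8797 CPM with vehicle and at 7099, 7419 and 8240 CPM with esculetin. The groups overlapped. The log2 fold change was -0.07 (SE 0.0963, 95% confidence interval -0.29 to 0.14), and it was 0.00 when vehicle replicate 3, the highest of the vehicle libraries, was left out. The ratio of Apob to Apoa1 differed by -0.09 on the log2 scale (exact permutation p = 0.6, adjusted 0.75).

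Apoa4 (ENSMUSG00000032080, chr9:46151994-46154757, plus strand), an apolipoprotein of intestine and liver, was uniform with vehicle and split with esculetin. It was at 61.6, 65.2 and 64.8 CPM with vehicle and at 37.2, 82.7 and 80.6 CPM with esculetin. The first esculetin library was the lowest of all 6 and the others were the highest. The log2 fold change over all libraries was 0.07 (SE 0.240, 95% confidence interval -0.47 to 0.60), limma gave it the opposite sign (-0.02 with voom and with a trend), and without esculetin replicate 1 it was 0.35 (SE 0.0811) with an unadjusted p of 0.00184 and an adjusted p of 0.258 in edgeR's quasi-likelihood test. The same library had the highest Apoa1, so that the log2 ratio of Apoa4 to Apoa1 was -8.03 there and -6.70 and -6.73 in the other esculetin libraries, and over the groups it differed by -0.04 (exact permutation p = 1, adjusted 1). That difference turned on single libraries, since it was 0.40 without esculetin replicate 1 and -0.27 and -0.25 without esculetin replicate 2 or 3. On the opposite strand, Gm47528 and Gm10680 overlap about the same stretch of Apoa4, with 634 and 632 bases. Whether the counting used strand is not given in the sources used here. Gm47528 had 25 counts in the vehicle libraries and 22 in the esculetin libraries, and Gm10680 had 0, against 1196 to 2868 counts of Apoa4 in a library.

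**Figure D3:**
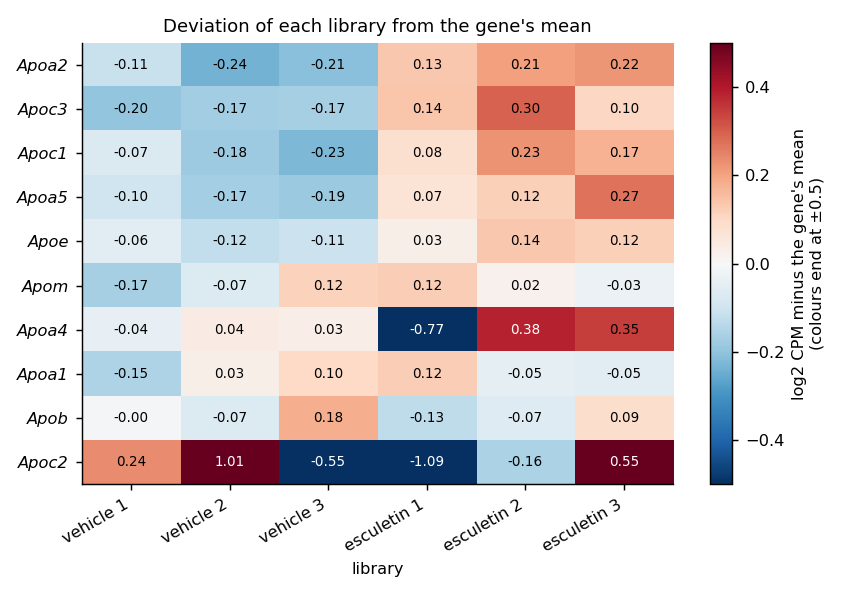
Deviation of each apolipoprotein gene (rows) from its own mean log2 CPM over the 6 libraries (columns), on a colour scale in log2 units. Apoa2, Apoc1, Apoc3 and Apoa5 are below their mean in all vehicle libraries and above it in all esculetin libraries, and Apoa4 has its lowest value in esculetin library 1.

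Of the 10 genes, 7 lie in 2 groups of neighbours. Apoa1, Apoc3, Apoa4 and Apoa5 lie within 43.3 kb of chromosome 9, with 315 bases between Apoa1 and Apoc3, which are transcribed from opposite strands. In this group Apoc3 and Apoa5 were higher with esculetin while Apoa1 and Apoa4 did not pass the test. The ratio of Apoc3 to Apoa1 was higher in every esculetin library than in every vehicle library, by 0.34 on the log2 scale (exact permutation p = 0.1, the smallest possible, and 0.4 adjusted over 10 ratios). The ratio of Apoa5 to Apoa1 was higher by 0.29 with an overlap (exact permutation p = 0.2, adjusted 0.4), and that of Apoa5 to Apoa4 by 0.33 (exact permutation p = 0.7, adjusted 0.778), a value that was -0.01 without esculetin replicate 1.

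Apoc2, Apoc1 and Apoe lie within 29.4 kb of chromosome 7. The ratio of Apoc1 to Apoe was higher in every esculetin library, by 0.13 on the log2 scale (exact permutation p = 0.1, adjusted 0.4). The ratio of Apoc2 to Apoe differed by -0.68 (exact permutation p = 0.5, adjusted 0.714), and that of Apoc2 to Apoc3 by -0.85 (exact permutation p = 0.3, adjusted 0.5). With 1 library left out in turn, these differences ran from -1.09 to -0.25 and from -1.30 to -0.41, nearest to 0 without vehicle replicate 2 or esculetin replicate 1 and farthest from it without vehicle replicate 3 or esculetin replicate 3. Around all 10 genes, 37 other protein-coding genes within 100 kb were tested. Of these, 5 were higher and 1 lower at an unadjusted p under 0.05, against 6.53% and 5.32% of all genes tested, and 0 were called, against 3.13%, and their median log2 fold change was 0.01, against 0.13 for the apolipoprotein genes, most of which are more abundant than 100 CPM, a level at which the median of all genes was 0.06. The single gene on the lower side was Bud13, an RNA splicing factor gene beyond Apoa5, with a log2 fold change of -0.51 and an unadjusted p of 0.0299. On the higher side were Apoc4, 128 bases from Apoc2, Nr1i3, 855 bases from Apoa2, at 0.39, and D17H6S53E, 137 bases from Apom, at 0.46. Aif1, near Apom, and Sdhc, near Apoa2, were also higher, at 0.36 and 0.17. All were named after their values were seen.

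**Figure D4:**
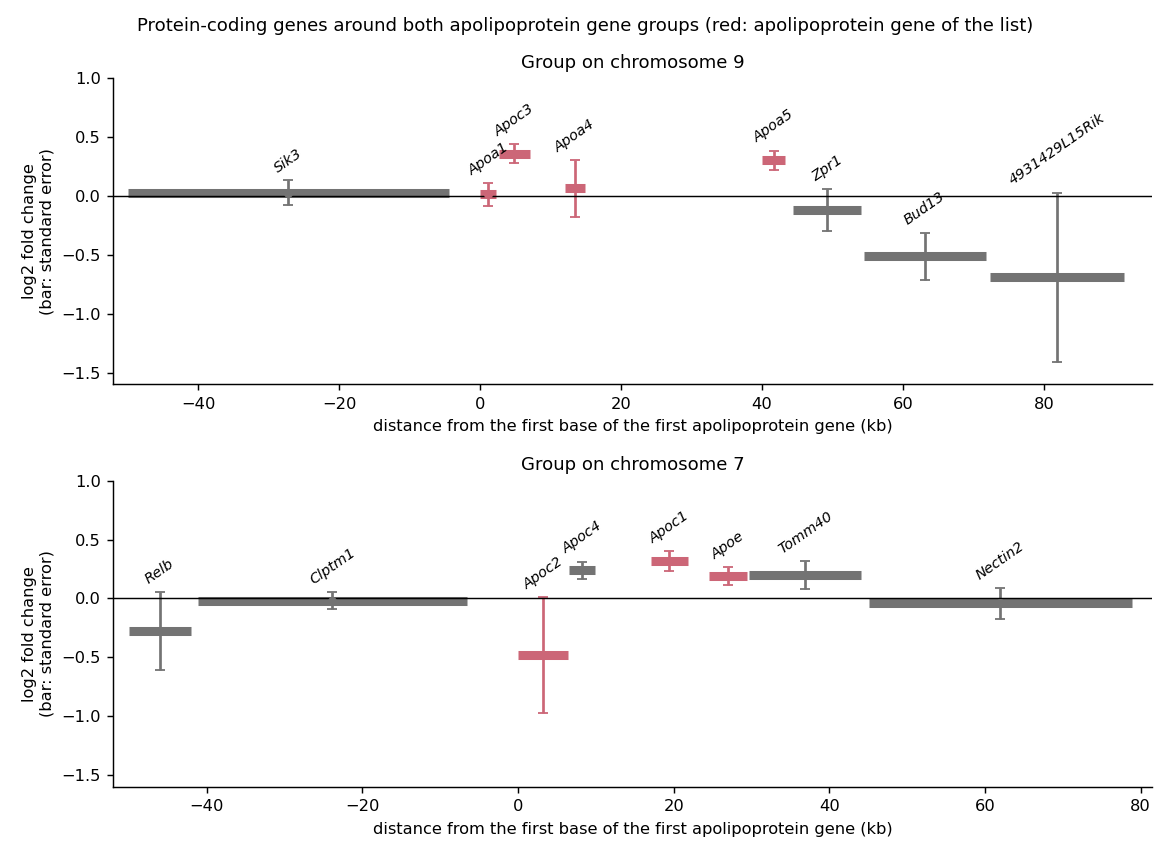
Log2 fold change, esculetin against vehicle, with its standard error, for tested protein-coding genes around the chromosome 9 and chromosome 7 groups, placed by distance in kb from the first base of the first apolipoprotein gene (bar length: gene body). On chromosome 9 Apoc3 and Apoa5 lie above 0, while Apoa1, Apoa4 and the flanking genes lie near or below 0, and on chromosome 7 Apoc4, Apoc1 and Apoe lie above 0, as does the flanking gene Tomm40 at 0.20.

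The genes whose pattern over the 6 libraries was most like that of Apoa2 were sought among 7090 protein-coding genes of at least 10 CPM. They were Ugt2b36, a glucuronosyltransferase gene, at a root mean square difference of 0.0316 in centred log2 CPM, Msra, a methionine sulfoxide reductase gene, at 0.0329, and Tex264, a receptor gene of endoplasmic reticulum autophagy, at 0.0351. Among the apolipoprotein genes, Apoc1 and Apoa5 were the closest to Apoa2, at 0.0416 and 0.0578.

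Other genes of lipoprotein metabolism were counted in 6 lists, to be read against all genes tested, of which 3.13% were called (1.37% higher and 1.76% lower) and 6.53% were higher and 5.32% lower at an unadjusted p under 0.05. Of 18 tested genes for other apolipoproteins and proteins bound to high density lipoprotein, 3 were higher at an unadjusted p under 0.05 and 0 were lower, none was called, and the median log2 fold change was 0.15. The 3 were Apoc4, the neighbour of Apoc2, at 0.24 (SE 0.0740, p 0.00938), and the apolipoprotein L genes Apol9b at 0.51 and Apol9a at 0.51, a near-identical pair between which reads cannot be assigned with certainty. Without vehicle replicate 3 Saa2 was called, and without esculetin replicate 3 Apol9a was. Of 8 lipases and regulators, 1 was called. Angptl4, a secreted inhibitor of lipoprotein lipase, was at 60.0, 62.5 and 71.1 CPM with vehicle and at 117, 96.7 and 158 CPM with esculetin, with no overlap and a log2 fold change of 0.94 (SE 0.158, unadjusted p 0.000155, adjusted p 0.114 in edgeR's quasi-likelihood test). In the same list Lpl itself, whose enzyme the C apolipoproteins act on, was lower at -0.50 (p 0.00702), and Lipc, hepatic lipase, was higher at 0.25 (p 0.0143), and Lpl was called without esculetin replicate 3.

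Of 11 receptors and their regulators, 1 was called, Sort1. Sort1, a sorting receptor that binds APOB in the secretory pathway, was at 23.2, 30.5 and 30.05 CPM with vehicle and at 18.3, 15.8 and 17.8 CPM with esculetin, and it fell by 0.69 on the log2 scale (SE 0.122, unadjusted p 0.000237, adjusted p 0.132 in edgeR's quasi-likelihood test). Vldlr, the very low density lipoprotein receptor, had only 20 to 121 counts per library and a log2 fold change of 0.92 (SE 0.456, unadjusted p 0.0732), and it was called with DESeq2, limma, no filter on low counts, and without vehicle replicate 1 or esculetin replicate 1. Mylip, which marks the low density lipoprotein receptor for degradation, was higher at 0.30 (p 0.0293). None of 10 genes for APOB editing and particle assembly was called or had an unadjusted p under 0.05 in edgeR's quasi-likelihood test, with a median of -0.00. Mttp, which loads lipid onto APOB, was at -0.08 (SE 0.0879), and Apobec1, which edits its message, at -0.40 (SE 0.240), though Apobec1 was called on the lower side without esculetin replicate 3.

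Of 24 transcription factors known to act on apolipoprotein genes, 2 were called, both higher. Nr0b2, the small heterodimer partner, a repressor, was at 15.3, 21.2 and 11.8 CPM with vehicle and at 33.1, 32.0 and 28.4 CPM with esculetin, with no overlap and a log2 fold change of 0.95 (SE 0.179, unadjusted p 0.000393, adjusted p 0.132 in edgeR's quasi-likelihood test). Cebpb, a factor of the acute phase and of glucose metabolism, was higher at 0.60 (SE 0.144, p 0.00211) and was no longer called with scaling by total counts, without vehicle replicate 1 or without esculetin replicate 1, and Foxo1, an insulin-restrained factor that drives Apoc3, was higher at 0.52 (p 0.000733) but under the fold threshold, which it passed without vehicle replicate 3. Hnf4a, Ppara and Creb3l3 did not pass the test, at 0.11 (SE 0.112), -0.04 (SE 0.136) and -0.09 (SE 0.0868). Of 7 tested genes of the lipid droplet and fat load, 0 were called, and Plin5 at 0.53 (p 0.00486) and Plin4 at 0.52 (p 0.0304) were higher. That 0 depended on single libraries, since Plin4 was called without vehicle replicate 1 or esculetin replicate 2, Plin5 without vehicle replicate 3 or esculetin replicate 3, Fgf21 without vehicle replicate 1, and Cidec, on the lower side, without esculetin replicate 3. Whether the levels of these genes had a part in those of the apolipoprotein genes was not tested.

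**Figure D5:**
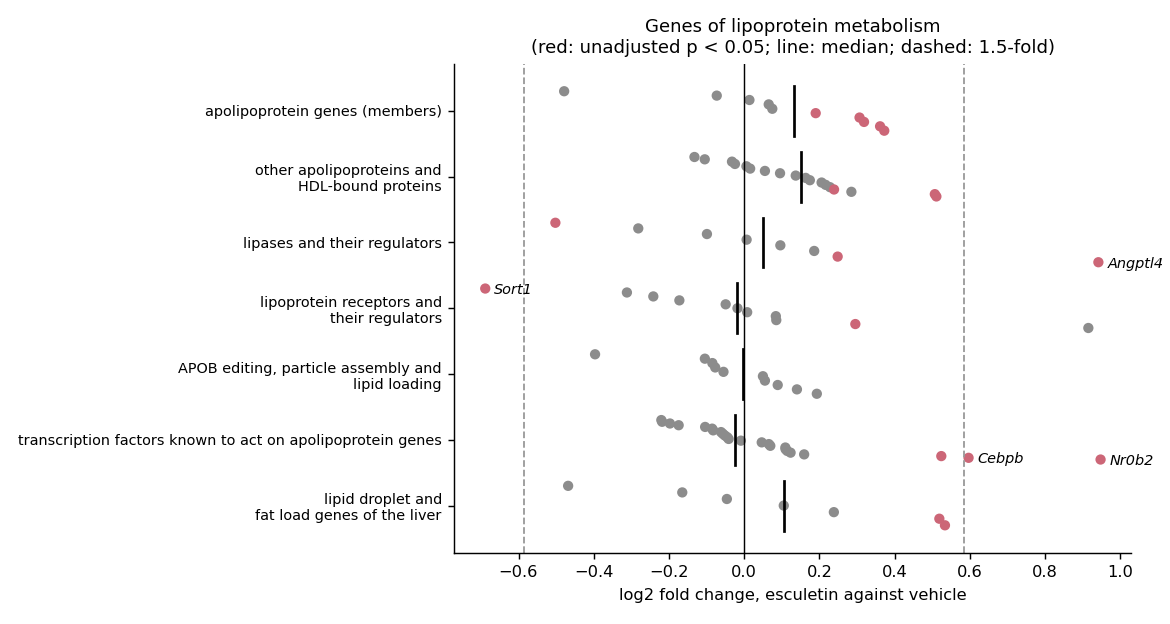
Log2 fold change, esculetin against vehicle, of every tested gene in the 10 apolipoprotein genes and in 6 lists of lipoprotein metabolism, with the median of each list as a vertical bar. The medians lie between -0.02 and 0.15, and the called genes are Angptl4, Nr0b2 and Cebpb on the higher side and Sort1 on the lower side.

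Markers of other cell types are read against all genes tested, of which 6.53% were higher and 5.32% lower at an unadjusted p under 0.05. Kupffer cell markers summed to 261 to 356 CPM with vehicle and 272 to 279.6 CPM with esculetin, and sinusoidal endothelial markers to 209 to 257 and 224 to 253 CPM, with 0 of 6 markers in each list at an unadjusted p under 0.05 in edgeR's quasi-likelihood test. Stellate cell markers summed to 313 to 375 and 281 to 371 CPM, with 1 of 6 higher (Des, log2 fold change 0.69). Cholangiocyte markers summed to 39.5 to 80.4 and 30.3 to 45.7 CPM, with 1 of 5 lower (Spp1, -0.75), and the 4 adipocyte markers summed to at most 0.613 CPM with vehicle and 0.894 to 1.19 CPM with esculetin, with Cfd higher by 1.72. Red blood cell markers summed to 127 to 155 and 114 to 178 CPM, with 1 of 5 higher and 1 lower, and 5 of 6 pancreatic acinar markers had 0 counts in all libraries. Their part in the values of the apolipoprotein genes was not tested.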

How the data were processed

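Liver messenger RNA was sequenced by the authors as 150-base paired reads on a NovaSeq, aligned to GRCm39 with HISAT2 2.2.1 and assigned to genes with featureCounts. The deposited values are raw counts per Ensembl gene in 1 table of 6 libraries. The annotation release, the strand setting and the handling of reads that match several genes are not given in the sources used here. Identifiers were paired with symbols, gene bodies and transcript lengths through GENCODE vM39 (54749 of 55357 matched). Columns were assigned to libraries by the dose and number in their names; the vehicle columns carry the diet and no dose.

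Counts were fitted in edgeR 4.0.16 (R 4.3.3) by the quasi-likelihood test with TMM scaling and filterByExpr over all 14433 genes, and p-values were adjusted by Benjamini-Hochberg over all of them. The study's methods name limma and the same thresholds, so limma 3.58.1 and DESeq2 1.42.0 were alternatives. CPM are TMM-scaled. With 3 libraries of pooled mice per group, p-values measure the spread between pools. A count of 3 corresponded to 0.0859 to 0.107 CPM, which covers counting error only. No 2 libraries of the same group agreed within sampling noise.

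Members, lists and tests were chosen with earlier results of these data known. Named besides the 10 members were list genes with an unadjusted p under 0.05, the smallest p first and at most 15, neighbours if called, and the 3 genes most like the member with the smallest p. Outside this rule, and with their values seen, Mttp, Apobec1, Hnf4a, Ppara, Creb3l3, Vldlr, Fgf21, Cidec and Saa1 to Saa4 were named too. So were Bud13, Nr1i3, D17H6S53E, Aif1, Sdhc, Tomm40, genes that overlap members and single markers. Ratios were tested by exact two-sided permutation of log2 ratios. The count code was tested on simulated data. Alternatives were other tools, scalings, filters and thresholds, a replicate block, and leaving out each library.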

Additional observations from a re-analysis of the deposited data

How the results depend on the processing

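The count of called apolipoprotein genes was 0 under every tool, scaling, filter and left-out library, and it was 5 with no fold threshold and 4 with a fold over 1.2. The count with an adjusted p under 0.05 was 0 in edgeR with the filter, 4 with DESeq2 and 4 in edgeR with no filter on low counts, where adjusted calls over all genes were 6 of 14433, 193 of 14433 and 477 of 24638. The count with an unadjusted p under 0.05 was 4 to 6 with a library left out. Apoa2, Apoa5, Apoc1 and Apoc3 kept an unadjusted p under 0.05 in all 14 alternatives, with highest values of 0.00554, 0.0172, 0.0142 and 0.0060, whereas Apoe did not in 8, with p up to 0.149. The sign of the log2 fold change turned for Apoa4 with limma-voom (-0.0208), limma with trend (-0.0238) and the replicate block (-0.0161), and for Apoa1 with total counts (-0.0077). With a library left out, the log2 fold change ran from -0.0557 to 0.0713 for Apoa1 (negative without vehicle replicate 1 or esculetin replicate 1), from -0.1165 to 0.3544 for Apoa4 (negative without esculetin replicate 2 or 3), from -0.1343 to 0.0048 for Apob (positive without vehicle replicate 3) and from -0.9687 to 0.0255 for Apoc2 (positive without vehicle replicate 2). The count of called genes in the pathway lists, 4, was 4 to 9 with a library left out, 7 without vehicle replicate 3 and 9 without esculetin replicate 3, and 3 with total counts. The cause was not tested. Total-count scaling moved the median of all genes to -0.03. Over all genes, same-numbered libraries did not deviate together (correlations of -0.07, -0.01 and 0.00). Such correlations cannot exclude a pairing that touches only a part of the genes. With the replicate block the count with an unadjusted p under 0.05 was 4, without Apoe. With the block all-gene adjusted calls were 15 against 6. The difference in summed share, 0.291 percentage points, ran from 0.235 to 0.358 over its alternatives. It and the 10 ratios moved by less than 1 SD pooled over both groups, which is wide for the ratios with Apoa4 and Apoc2, and with a library left out the sign turned for Apoa4 to Apoa1 (-0.27 to 0.40), Apoa5 to Apoa4 (-0.01 to 0.54) and Apob to Apoa1 (-0.18 to 0.02). Apoc2 had the fewest counts of the 10 genes, 18 to 85 per library, and its precision is the lowest. The level of Apoc2 is also uncertain because of the exons it shares with Apoc2l.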

Other observations

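The 4 serum amyloid A genes encode apolipoproteins of high density lipoprotein, and the groups overlapped for each of them. Saa1 was at 44.9, 126 and 218 CPM with vehicle and at 234, 70.7 and 84.8 CPM with esculetin, and Saa4 at 319, 445 and 615 CPM and at 718, 420 and 463 CPM. Saa2 was at 10.997, 18.8 and 50.4 CPM with vehicle and at 46.6, 25.9 and 24.9 CPM with esculetin. Saa3 was nearly level with vehicle, at 6.91, 7.00 and 6.86 CPM, and was at 7.87, 5.33 and 5.76 CPM with esculetin. Esculetin replicate 1 was the highest library for Saa1, Saa3 and Saa4, as for Apoa1 and Apom, but for Saa2 the highest was vehicle replicate 3. Vehicle replicate 1 was the lowest library for Saa1, Saa2 and Saa4, as for Apoa1 and Apom, but not for Saa3, which was lowest in esculetin replicate 2. These orders were looked at with the values in view and were not tested.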
